A study of Homo sapiens with 9 samples.

Results

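SNU16 cells, an established human gastric carcinoma line, were exposed to 80 µM hydrogen peroxide (H2O2) for 24 h and compared with untreated control cells of the same line at 24 h. Both groups are labelled wild type, and each holds 3 libraries, so that 6 of the 9 libraries of the study entered the comparison. The other 3 libraries, from cells given 7.69 µM 5-fluorouracil (5-FU) for 24 h, entered the fit to estimate the spread between replicates. Their values are given beside the called transcripts that are described. The study is on drug resistance and reactive oxygen species in gastric cancer, and its title names the focal adhesion gene TNS4. Features entered the comparison with 0.5 FPKM or more in 3 or more of the 6 libraries, FPKM being a read density per transcript length and library size. This left 9410 of 28717 genes, with the values of all listed transcripts of a gene summed, and 20135 of 90652 single transcripts. The labels leave unsaid whether the replicates were grown separately. Any p-value therefore measures library-to-library spread only, which may be technical.

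Hydrogen peroxide crosses membranes, oxidises cysteine thiols and, with ferrous iron, gives hydroxyl radicals that damage DNA and lipids. Cells break it down with catalase, glutathione peroxidases and peroxiredoxins. The sensor KEAP1, once oxidised, releases the transcription factor NRF2, whose target genes make glutathione, thioredoxin reductase and NADPH. Peroxide is also known to touch NF-kB signalling, the p53 response to DNA damage and the cell cycle, while interferon-stimulated genes are kept on by factors that include STAT2 and IRF9.

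The deposited table lists mostly transcripts of non-coding classes. Transcripts that GENCODE V29 classes as retained-intron made up a median of 100% of the signal of a protein-coding gene, so a value under such a symbol is mostly that of intron-retaining or other non-coding transcripts and not of its mRNA. The sources used here do not say whether quantification used strand, so values of antisense and overlapping genes are uncertain. Retained-intron transcripts held 65.4, 63.4 and 66.3% of the summed FPKM in the H2O2 libraries, against 62.7, 62.7 and 63.4% in the controls. Transcripts of lncRNA genes held 13.9, 15.3 and 13.3% in the H2O2 libraries and 15.4, 15.7 and 15.6% in the controls. In both shares H2O2 replicate 2 lay close to the controls. On the first principal component of the 6 libraries, which carried 30.5% of the variance, the H2O2 libraries were at 2.71, -1.28 and 39.8 and the controls at -13.5, -13.3 and -14.4, so H2O2 replicate 3 stood apart from the other 5. Correlations of log values across genes were 0.915 to 0.939 between H2O2 libraries and 0.933 to 0.934 between controls. Markers of the epithelial origin were present, with KRT18 at 76.2, 78.0 and 87.2 FPKM in H2O2 and 67.7, 74.2 and 68.8 FPKM in control libraries, and EPCAM at 22.6, 12.1 and 17.6 FPKM in H2O2 and 10.9, 10.8 and 31.1 FPKM in control libraries, while KRT20 was listed at 0 in all 6. Of 10 fibroblast markers 8 were in the deposited table, and they summed to at most 0.728 FPKM in any of the 6 libraries. Of 10 leukocyte markers 5 were in it, summing to at most 0.0260 FPKM. Of 6 endothelial markers only VWF and KDR were in it, both at 0. The other markers of these lists had no value. Neural markers summed to 0.520, 1.04 and 1.02 FPKM in H2O2 libraries and 0.468, 1.30 and 0.778 FPKM in controls, with RBFOX3 at 0 in all 6. MAP2, the tested member, had 0.139, 0.586 and 0.522 FPKM in H2O2 and 0.317, 0.915 and 0.672 FPKM in control libraries, and these overlapped.

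**Figure D1:**
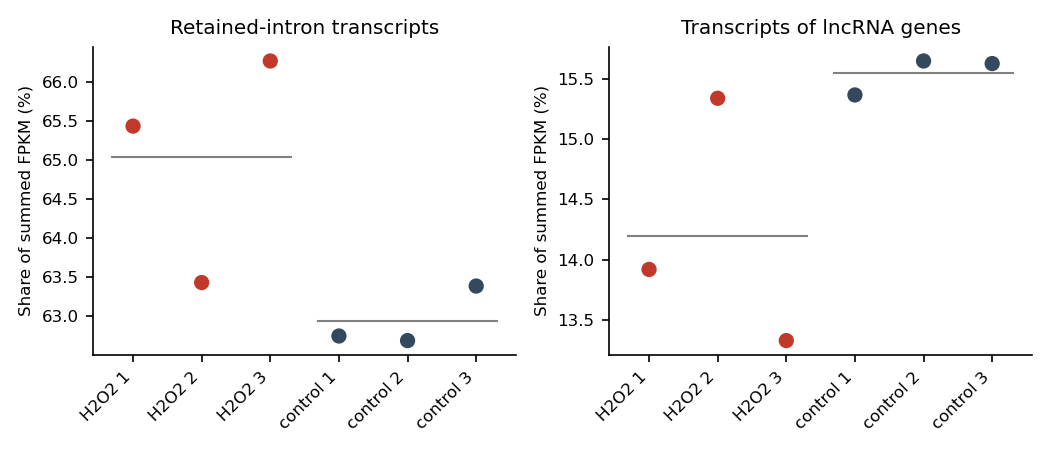
Share of the summed FPKM (%, vertical axis) held by retained-intron transcripts (left) and by transcripts of lncRNA genes (right) in each of the 3 H2O2 and 3 control libraries, with grey lines at the group means. H2O2 replicates 1 and 3 differ from the controls in both shares, while replicate 2, at 63.4 and 15.3%, lies beside them.

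Across the 9410 genes, 0 passed a limma adjusted p of 0.05 (0.0%), with a smallest adjusted p of 0.0973, and 869 (9.23%) had an unadjusted p under 0.05. With limma array weights the count was also 0, and 923 genes had an unadjusted p under 0.05. The 3 H2O2 values lay wholly above the 3 control values in 853 genes (9.06%) and wholly below them in 613 genes (6.51%), and these shares are the background against which counts of members without overlap are read below. The split leans on the scaling, since with median-of-ratios scaling 701 genes (7.45%) lay above and 793 (8.43%) below. The median log2 difference of all genes was 0.03 as deposited and 0.00 after that scaling. In what follows a gene is called higher or lower only where the groups do not overlap, and no single gene named passed the test. Genes of the protein-coding class lay above without overlap in 641 of 6446 cases (9.94%) and below in 321 (4.98%). The lncRNA genes leaned the other way, with 158 of 2334 above (6.77%) and 244 below (10.5%), and a median log2 difference of -0.05 against 0.06 for protein-coding genes. After scaling, 138 lncRNA genes lay above and 308 below, and 521 and 423 protein-coding genes, with medians of -0.08 and 0.03. The shares of lncRNA and retained-intron signal given above move with this contrast, and their part in it was not tested.

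Single transcripts gave 5 calls of 20135 (0.0248%), of which 3 rose and 2 fell, and 4 of the 5 are described here. OAS2 makes oligoadenylates in response to interferon, which switch on RNA decay. Its transcript OAS2-214 (chromosome 12, 113003305 to 113011138), stood at 2.55, 4.40 and 2.21 FPKM in H2O2 libraries, against 22.2, 19.7 and 21.8 FPKM in controls. It fell by 2.66 on the log2(FPKM + 0.5) scale, used for all differences here (SE 0.25, limma adjusted p = 0.0139). The next transcript of the gene, OAS2-213, had 3.53, 5.73 and 7.44 FPKM in H2O2 libraries and 1.89, 3.50 and 4.11 FPKM in controls. All listed OAS2 transcripts together gave 7.04, 11.4 and 13.1 FPKM in H2O2 libraries and 24.8, 25.1 and 28.7 FPKM in controls, so the sum was lower without overlap as well.

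MARF1 is a regulator of meiosis and of retrotransposon RNA, known mainly from the mouse oocyte. Its retained-intron transcript MARF1-209 (chromosome 16, 15596767 to 15599171) was at 2.47, 2.52 and 1.81 FPKM in H2O2 libraries, against 0.203, 0.243 and 0.297 FPKM in controls, and rose by 1.88 (SE 0.19, limma adjusted p = 0.0224). MARF1-215, the main listed transcript of the gene, had 16.9, 17.5 and 17.2 FPKM in H2O2 libraries and 18.98, 20.8 and 20.5 FPKM in controls. The gene sum was 27.3, 30.2 and 27.6 FPKM in H2O2 and 29.6, 29.98 and 30.5 FPKM in control libraries, and these overlapped.

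A further pair of calls rose against controls listed at 0. CYP1B1-AS1-221, an antisense transcript beside the dioxin-inducible cytochrome gene CYP1B1 (chromosome 2, 38083173 to 38131567), had 2.22, 2.57 and 1.64 FPKM in H2O2 libraries and was listed at 0 in all 3 controls (limma adjusted p = 0.0139). MFN2-226, listed under the gene of the mitochondrial fusion protein mitofusin 2 (chromosome 1, 11980238 to 12013500), had 0.830, 1.10 and 1.16 FPKM in H2O2 libraries and was likewise listed at 0 in the controls (limma adjusted p = 0.0474). The gene sums differed little, with 12.5, 11.5 and 9.10 FPKM in H2O2 and 11.3, 9.46 and 9.52 FPKM in control libraries under CYP1B1-AS1, and 8.42, 9.01 and 8.76 FPKM in H2O2 and 7.23, 7.49 and 8.39 FPKM in control libraries under MFN2. The groups overlapped under CYP1B1-AS1, and under MFN2 the H2O2 values lay just above the controls, at a log2 difference of 0.17. In the 5-FU libraries, which were compared with the same controls, CYP1B1-AS1-221 stood at 1.97, 2.41 and 1.42 FPKM and MFN2-226 at 1.02, 1.03 and 1.35 FPKM. There OAS2-214 stood at 19.8, 24.8 and 17.0 FPKM, near its controls, and MARF1-209 at 0.826, 0.581 and 0.581 FPKM, below every H2O2 library. All 5 calls were lost when H2O2 replicate 1, control replicate 1 or control replicate 3 was left out, with 0, 0 and 1 transcripts called in those fits, that 1 being another transcript. MFN2-226 was lost as well at a pseudocount of 1, with no filter, in a fit of the 6 libraries alone and without H2O2 replicate 2, H2O2 replicate 3 or control replicate 2, and it did not pass a filter of 1 FPKM. MARF1-209 was lost with that filter, in the fit of the 6 libraries and without H2O2 replicate 2 or control replicate 2.

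**Figure D2:**
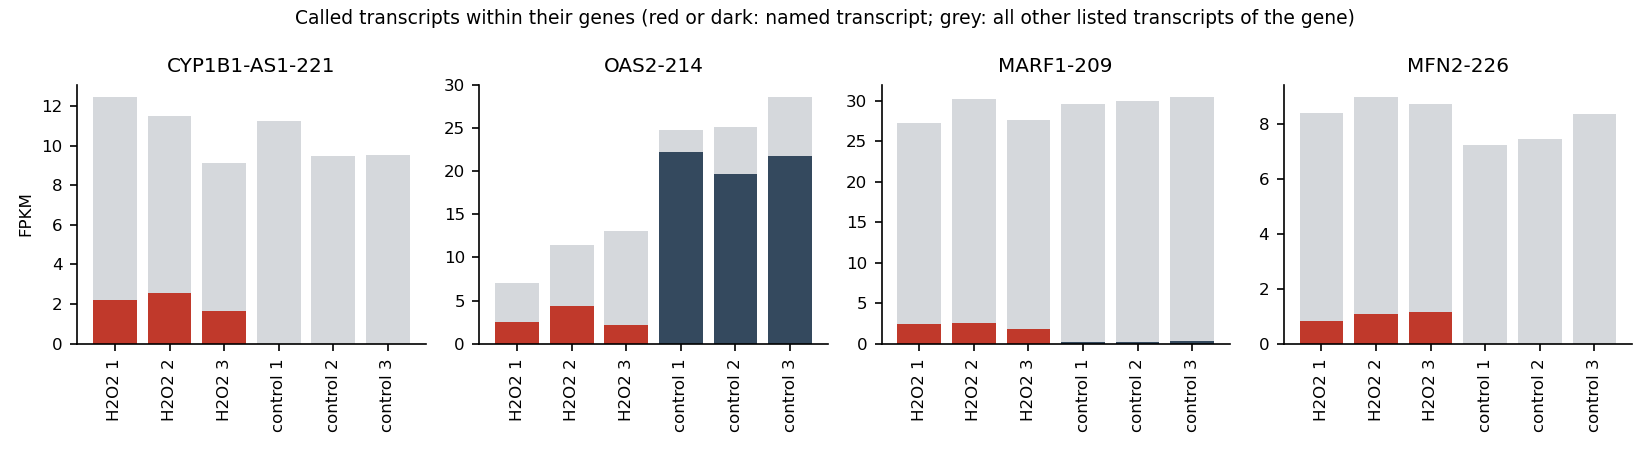
FPKM (vertical axis, from 0) of 4 of the 5 transcripts that passed the test, in each of the 3 H2O2 and 3 control libraries, as the coloured part of bars whose full height is the sum of all listed transcripts of the gene. OAS2-214 makes up most of the OAS2 signal in controls at 19.7 to 22.2 FPKM, while the other 3 stay under 3 FPKM in every library, beside a larger remainder of the gene.

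Beyond the calls, the rule for leading transcripts named several more with separated groups, which over all transcripts were 1664 higher (8.26%) and 1158 lower (5.75%). Retained-intron transcripts were higher under ANKHD1, at 5.68, 6.30 and 8.65 FPKM in H2O2 and 1.20, 1.21 and 1.70 FPKM in control libraries (limma adjusted p = 0.0644), and under YBX3, the gene of a cold-shock-domain protein, at 14.2, 10.3 and 11.9 FPKM in H2O2 and 4.001, 3.97 and 4.37 FPKM in control libraries (adjusted p = 0.0714). For YBX3 the gene sum followed, at 30.9, 30.2 and 30.1 FPKM in H2O2 and 21.5, 23.3 and 21.2 FPKM in control libraries. PSMD2-213, under a subunit of the proteasome's regulatory particle, had 5.29, 3.81 and 4.52 FPKM in H2O2 and 1.28, 1.07 and 1.91 FPKM in control libraries. PQBP1-209, under a splicing-related gene, had 1.90, 2.59 and 1.96 FPKM in H2O2 and 0.498, 0.631 and 0.568 FPKM in control libraries. Lower were TSTD1-205, at 0.117, 0.172 and 0.106 FPKM in H2O2 and 3.04, 1.96 and 2.25 FPKM in control libraries, and RPL37A-201, under a ribosomal protein gene with related copies elsewhere in the genome, at 2.94, 3.84 and 2.52 FPKM in H2O2 and 12.3, 6.69 and 7.57 FPKM in control libraries. None of these 6 passed the test.

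Over all transcripts 8.26% were higher and 5.75% lower without overlap, so a gene with several transcripts has several chances of each. The share of genes with both that unrelated transcripts would give was not worked out. As a description only, opposite movement within a gene was seen in 159 of 4243 genes with at least 2 tested transcripts (3.75%), where 1 transcript was higher and another lower without overlap. GMDS-DT, a lncRNA gene transcribed divergently from GMDS, showed it with GMDS-DT-224 at 1.89, 2.04 and 1.78 FPKM in H2O2 and 0.414, 0.455 and 0.317 FPKM in control libraries, and GMDS-DT-201 at 0.265, 0.244 and 0.499 FPKM in H2O2 and 2.50, 1.65 and 2.05 FPKM in control libraries. Their sum with the rest of the gene was 6.93, 10.4 and 8.56 FPKM in H2O2 and 11.01, 8.80 and 11.6 FPKM in control libraries, which overlapped. Under PLOD2, a collagen lysyl hydroxylase, PLOD2-229 had 17.6, 21.8 and 9.74 FPKM in H2O2 and 6.15, 3.91 and 3.46 FPKM in control libraries, against 3.74, 4.51 and 7.12 FPKM in H2O2 and 12.4, 13.3 and 11.1 FPKM in control libraries for PLOD2-219. PABPC1, the main cytoplasmic poly(A)-binding protein gene, had PABPC1-207 at 1.77, 3.66 and 1.78 FPKM in H2O2 and 26.8, 62.0 and 46.6 FPKM in control libraries, and PABPC1-203 at 50.6, 6.37 and 9.96 FPKM in H2O2 and 4.68, 4.54 and 5.14 FPKM in control libraries. The part that the division of reads between overlapping models has in these values was not tested. None of the transcripts named in these pairs passed the test. The limma adjusted p was 0.0589 for both GMDS-DT transcripts, 0.604 for PLOD2-229 and 0.637 for PLOD2-219. For PABPC1-207 and PABPC1-203 the limma adjusted p was 0.427 and 0.682.

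Leading gene sums were drawn from genes with a symbol, separated groups and a mean of 2 FPKM or more in the higher group. Among these, the smallest p in the higher direction belonged to SNHG15, whose introns carry small nucleolar RNAs. Genes outside this rule were not ranked. Listed on chromosome 7 from 44983019 to 44986961, SNHG15 had 24.2, 22.6 and 25.6 FPKM in H2O2 libraries, against 13.1, 9.53 and 11.6 FPKM in controls, with limma giving a difference of 1.06 on the log2 scale (SE 0.15, adjusted p = 0.0973). TOM1L1, an adaptor of endosomal sorting and of Src-family signalling (chromosome 17, 54913819 to 54961413), had 12.6, 14.6 and 14.1 FPKM in H2O2 libraries and 5.66, 7.29 and 5.59 FPKM in controls (log2 difference 1.10, SE 0.16, limma adjusted p = 0.0973). KPNA2, an importin that carries proteins into the nucleus, had 14.5, 17.1 and 16.1 FPKM in H2O2 libraries and 8.16, 7.51 and 8.68 FPKM in controls. In all 3 the groups were well separated, the lowest H2O2 library lying above the highest control.

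ARID4B, part of a histone deacetylase complex, stood at 9.80, 9.11 and 9.66 FPKM in H2O2 and 5.59, 5.31 and 5.21 FPKM in control libraries, and INO80E, a subunit of the INO80 chromatin remodeller, at 5.65, 6.11 and 4.41 FPKM in H2O2 and 2.84, 2.51 and 2.36 FPKM in control libraries. Signalling and turnover genes included RPS6KB1, the ribosomal S6 kinase downstream of mTOR, at 14.7, 12.7 and 16.4 FPKM in H2O2 and 8.42, 7.60 and 9.03 FPKM in control libraries, and ATG2A, a lipid transfer protein of autophagosome growth, at 1.99, 2.27 and 2.42 FPKM in H2O2 and 0.974, 0.759 and 1.15 FPKM in control libraries. PPP1R2, an inhibitor of protein phosphatase 1, UBXN6, a cofactor of the segregase VCP, and B4GALNT1, a ganglioside synthase, completed the leading set beside NFKBIA and AKR1C2, which are described below. Their log2 differences were 1.01, 1.0 and 1.05.

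On the lower side, OAS2 led the genes that met the same rule, with limma putting the log2 difference at -1.32 (SE 0.22, adjusted p = 0.196). TSTD1, a small sulfurtransferase gene, had 0.800, 1.16 and 0.395 FPKM in H2O2 libraries, against 3.30, 3.49 and 2.96 FPKM in controls. LFNG, a fringe glycosyltransferase that modifies Notch receptors, had 3.52, 3.39 and 2.64 FPKM in H2O2 libraries and 8.05, 5.29 and 11.04 FPKM in controls. A transcript of a second fringe gene, RFNG-207, was also lower, with 0.509, 0.377 and 0.423 FPKM in H2O2 and 3.00, 3.01 and 5.11 FPKM in control libraries, though the RFNG sum overlapped. GPAA1, of the complex that attaches GPI anchors, had 7.71, 7.80 and 8.19 FPKM in H2O2 libraries and 13.8, 12.2 and 14.9 FPKM in controls. RAVER1, a partner of the splicing repressor PTBP1, had 1.76, 1.64 and 1.71 FPKM in H2O2 and 4.21, 3.48 and 3.60 FPKM in control libraries. The remaining leading lower genes were GSTZ1, RSAD2 and IFI44L, given with their groups below, and TUBGCP5, of the gamma-tubulin ring complex, ZNF276, PDK2, a kinase that restrains pyruvate dehydrogenase, and the lncRNA gene TYMSOS.

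**Figure D3:**
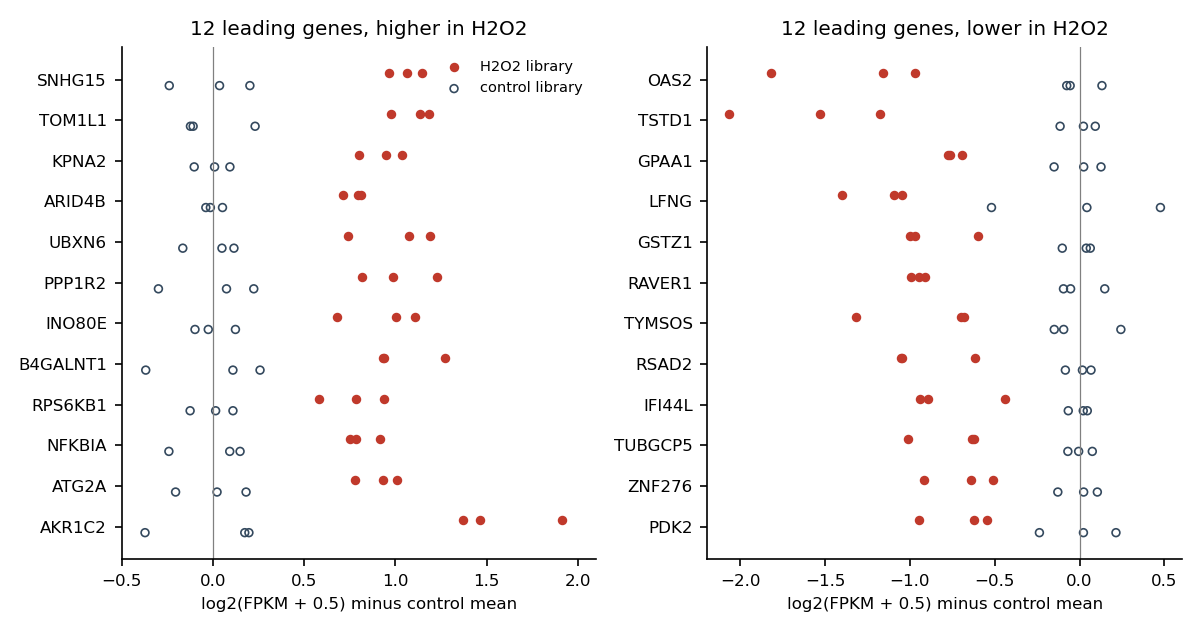
Each library's log2(FPKM + 0.5) minus the mean of the 3 controls (horizontal axis) for the 12 leading genes higher in H2O2 (left) and the 12 lower (right), filled points for H2O2 and open points for control libraries. In every gene the points of the groups are separate, with OAS2 at a fitted difference of -1.32 and AKR1C2 at 1.58.

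Genes of the NRF2 response come first among the groups by function. Of 26 listed target genes 15 were in the table and 12 were tested. Without overlap 4 of the 12 were higher and 0 lower, where the background was 9.06 and 6.51%, and 0 were called. The median log2 difference of the 12 was 0.31, against 0.03 for all genes, and 0.28, 0.25 and 0.37 for H2O2 replicates 1, 2 and 3 taken alone against the control mean. AKR1C2, an aldo-keto reductase whose sequence is nearly identical to that of AKR1C1, had 6.45, 6.02 and 9.0 FPKM in H2O2 libraries, against 2.35, 1.45 and 2.39 FPKM in controls (log2 difference 1.58, SE 0.34, limma adjusted p = 0.282). TXNRD1, thioredoxin reductase, had 14.9, 21.1 and 18.7 FPKM in H2O2 libraries and 12, 10.2 and 9.70 FPKM in controls. PGD, which makes NADPH in the pentose phosphate pathway, had 2.46, 2.96 and 3.85 FPKM in H2O2 libraries and 1.23, 1.71 and 2.01 FPKM in controls. GCLC, the catalytic subunit of the enzyme that starts glutathione synthesis, was at 42.2, 40.4 and 15.4 FPKM in H2O2 libraries and 12.02, 10.2 and 13.1 FPKM in controls, so that H2O2 replicate 3 lay only just above the controls. NQO1, a quinone reductase often used as the marker of NRF2 activity, went the other way in its listed transcripts, with 4.40, 2.33 and 2.45 FPKM in H2O2 and 2.90, 4.59 and 7.16 FPKM in control libraries, and these overlapped.

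The windows before the RefSeq start sites of these genes were searched for the core of the antioxidant response element, which NRF2 binds with a small MAF partner. The motif TGACNNNGC, on either strand, lay in the 300 bases from 250 before to 50 after the start in 13.6% of 27195 RefSeq promoters. Of the 12 tested target genes 9 had a window in that table, and 2 of these, TXNRD1 and PGD, held the motif. They are shown because both genes were higher without overlap, as RefSeq sequence of the build GRCh38.p14 at chr12:104215529-104215808, plus strand, and chr1:10398814-10399093, plus strand, from 250 bases before to 30 after the start, with each motif match in capitals.
TXNRD1: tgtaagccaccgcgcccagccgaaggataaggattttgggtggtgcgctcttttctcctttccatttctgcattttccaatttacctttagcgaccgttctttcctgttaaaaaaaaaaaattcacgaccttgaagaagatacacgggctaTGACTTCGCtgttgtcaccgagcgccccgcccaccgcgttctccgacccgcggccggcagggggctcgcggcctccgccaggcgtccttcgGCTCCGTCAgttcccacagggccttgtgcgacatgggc
PGD: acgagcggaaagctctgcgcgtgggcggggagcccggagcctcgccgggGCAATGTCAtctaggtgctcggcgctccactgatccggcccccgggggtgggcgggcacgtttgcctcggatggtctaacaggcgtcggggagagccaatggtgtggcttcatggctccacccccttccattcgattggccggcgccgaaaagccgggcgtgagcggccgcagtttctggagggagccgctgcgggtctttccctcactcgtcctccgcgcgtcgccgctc
TXNRD1 has matches that begin 99 and 8 bases before the start, and PGD has a match that begins 201 bases before it. The TXNRD1 transcripts in the table begin at position 104224816, downstream of this window, so the window is not the start of the RNA measured. The same holds for GCLC, on the minus strand, whose listed span reaches 53522779 while its window runs from 53545072 to 53545351. A match is a run of letters, not a site of binding, and no match in AKR1C2 or GCLC says only that these letters are not in the window.

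The regulators and the direct peroxide enzymes had smaller median log2 differences, of -0.02 and 0.19. Of the 6 tested regulators 2 were higher and 0 lower without overlap, namely RBX1 and GSK3B. RBX1, the RING subunit of the ligase that marks NRF2 for degradation, had 4.44, 5.21 and 4.68 FPKM in H2O2 and 3.57, 3.98 and 4.13 FPKM in control libraries. GSK3B, a kinase that also marks NRF2, had 3.60, 4.25 and 4.21 FPKM in H2O2 and 3.41, 3.25 and 3.24 FPKM in control libraries. NFE2L2, the gene of NRF2 itself, had 3.24, 4.89 and 3.87 FPKM in H2O2 and 4.71, 4.01 and 4.45 FPKM in control libraries and overlapped. Among 7 tested peroxide and superoxide enzymes 0 were higher and 0 lower without overlap. Catalase, CAT, had 4.77, 6.02 and 5.54 FPKM in H2O2 and 4.96, 4.12 and 5.07 FPKM in control libraries, and PRDX2, a peroxiredoxin, had 10.8, 13.7 and 24.6 FPKM in H2O2 and 14.02, 24.8 and 6.96 FPKM in control libraries. The spread of PRDX2 within each group was larger than the difference between the groups.

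In glutathione synthesis and use, 2 of 11 tested genes were higher and 1 lower without overlap. GSTP1, a glutathione transferase that conjugates electrophiles and drugs, stood at 44.4, 49.3 and 52.3 FPKM in H2O2 libraries, against 6.49, 28.7 and 12.6 FPKM in controls (log2 difference 1.82, SE 0.45, limma adjusted p = 0.307). The H2O2 libraries agreed closely there and the controls did not. ABCC1, an exporter of glutathione conjugates, had 17.9, 20.0 and 16.9 FPKM in H2O2 and 16.3, 10.6 and 16.2 FPKM in control libraries. GSTZ1, a transferase of tyrosine breakdown, was lower at 1.91, 1.32 and 1.36 FPKM in H2O2 and 3.25, 2.90 and 3.31 FPKM in control libraries. With scaling 1 member was higher and 1 lower. In iron handling and ferroptosis 1 of 9 tested genes was higher without overlap, FECH, which inserts iron into haem, at 1.06, 1.30 and 1.06 FPKM in H2O2 and 1.06, 0.661 and 0.911 FPKM in control libraries, a margin too small to show at 3 digits, and after median-of-ratios scaling FECH overlapped.

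Interferon-stimulated genes were the group that lay furthest below the controls. Of 52 listed, 39 were in the table and 37 were tested, and 13 were lower and 2 higher without overlap. The median log2 difference of the 37 was -0.45, and 32 of them lay below 0. Taken alone against the control mean, H2O2 replicates 1, 2 and 3 gave medians of -0.46, -0.31 and -0.56, so the median was below 0 in each library. The summed value of the 39 genes was 256, 297 and 276 FPKM in H2O2 libraries, against 377, 361 and 387 FPKM in controls. With median-of-ratios scaling 19 were lower and 0 higher, and without H2O2 replicate 3, a choice made after that library was seen to stand apart, 17 were lower and 2 higher, where over all genes the shares without that library were 10.7 and 13.4%. By limma 0 were called, and 14 had an unadjusted p under 0.05. In bulk RNA, fewer cells in a state and less RNA per cell cannot be told apart.

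The members span the pathway. Among its transcription factors STAT2 had 8.29, 11.5 and 8.58 FPKM in H2O2 and 14.4, 17.6 and 14.01 FPKM in control libraries. Its partner IRF9 overlapped, at 5.52, 6.10 and 10.9 FPKM in H2O2 and 6.97, 8.99 and 7.58 FPKM in control libraries. RIGI, a cytoplasmic sensor of viral RNA, had 7.15, 7.14 and 5.30 FPKM in H2O2 and 10.7, 8.92 and 13.3 FPKM in control libraries, whereas IFIH1, the related sensor MDA5, overlapped at 3.58, 3.90 and 2.87 FPKM in H2O2 and 3.67, 3.12 and 3.37 FPKM in control libraries. Among the effectors, results were mixed, with RSAD2, IFI44L and MX2 lower and IFI44, DDX60, XAF1, GBP1, MX1, BST2, ISG20, IFI27 and PARP14 overlapping. RSAD2, the antiviral enzyme viperin, had 3.35, 3.34 and 4.69 FPKM in H2O2 libraries and 7.85, 7.56 and 7.02 FPKM in controls, IFI44L had 7.21, 10.4 and 7.45 FPKM in H2O2 and 13.6, 14.5 and 14.7 FPKM in control libraries, and MX2 had 10.3, 12.7 and 9.71 FPKM in H2O2 and 17.1, 13.5 and 19.7 FPKM in control libraries. Their log2 differences were -0.91 for RSAD2, -0.76 for IFI44L and -0.59 for MX2.

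The oligoadenylate synthetases differed among themselves. OASL, at 7.67, 10.2 and 6.83 FPKM in H2O2 and 13.9, 14 and 13.3 FPKM in control libraries, was lower like OAS2. OAS1 was higher, with 5.19, 5.20 and 6.11 FPKM in H2O2 and 4.94, 3.33 and 4.19 FPKM in control libraries, although its groups overlapped after median-of-ratios scaling. OAS3 overlapped, at 13.8, 17.3 and 10.5 FPKM in H2O2 and 11.8, 15.9 and 20.2 FPKM in control libraries. The other member that lay above the controls was SP110, at 5.05, 5.79 and 4.30 FPKM in H2O2 and 3.14, 3.23 and 4.27 FPKM in control libraries, and it too overlapped after scaling.

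Windows of 28 of the 37 tested genes were in the RefSeq table, and 14 of them held the interferon-stimulated response element as GAAA, any 2 bases and GAAA again, on either strand, against 3.65% of all 27195 promoters. Of the 10 with separated groups and a window, 3 held it. IFI44L and EIF2AK2, the gene of the RNA-activated kinase PKR that had 6.42, 6.14 and 6.42 FPKM in H2O2 and 11.1, 8.21 and 7.66 FPKM in control libraries, are shown as lower members with the motif, at chr1:78620198-78620477, plus strand, and chr2:37156951-37157230, minus strand (GRCh38.p14, motif in capitals).
IFI44L: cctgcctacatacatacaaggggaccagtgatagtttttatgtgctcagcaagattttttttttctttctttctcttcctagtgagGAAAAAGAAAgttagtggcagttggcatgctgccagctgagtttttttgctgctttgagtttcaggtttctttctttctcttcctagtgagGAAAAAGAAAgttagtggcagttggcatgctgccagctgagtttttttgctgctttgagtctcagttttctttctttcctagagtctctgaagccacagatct
EIF2AK2: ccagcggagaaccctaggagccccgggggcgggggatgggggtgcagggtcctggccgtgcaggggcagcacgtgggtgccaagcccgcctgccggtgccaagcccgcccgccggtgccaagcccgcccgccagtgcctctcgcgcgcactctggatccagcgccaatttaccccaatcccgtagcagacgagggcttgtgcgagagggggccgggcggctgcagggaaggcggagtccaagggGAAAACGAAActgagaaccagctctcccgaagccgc
The matches begin 164 and 73 bases before the start in IFI44L and 6 bases before it in EIF2AK2. These letters are in many promoters of the list whether or not the gene was lower, OAS3 and IFIH1 among them.

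Of 22 listed NF-kB and inflammatory genes 16 were in the table and 9 were tested. These were NFKB1, NFKB2, NFKBIA, NFKBIZ, RELA, RELB, TNFAIP2, TNFAIP3 and TNIP1. Listed cytokine and chemokine genes such as IL6, TNF and CXCL8 were not tested. Of the 9 tested, 3 were higher and 0 lower without overlap, all 9 had a log2 difference above 0, and the median was 0.46. Replicates 1, 2 and 3 alone gave 0.46, 0.23 and 0.64. NFKBIA, the inhibitor that NF-kB induces to end its own activity, had 5.86, 6.63 and 6.01 FPKM in H2O2 libraries, against 3.69, 3.53 and 2.70 FPKM in controls (log2 difference 0.82, SE 0.17, limma adjusted p = 0.282). RELB, a subunit of the non-canonical factor, had 1.54, 1.70 and 2.68 FPKM in H2O2 libraries and 0.404, 1.18 and 0.154 FPKM in controls, and its partner NFKB2 had 13.7, 10.6 and 15.8 FPKM in H2O2 and 8.70, 9.93 and 8.53 FPKM in control libraries. RELA and NFKB1, of the canonical factor, overlapped, RELA at 20.2, 17.6 and 30.4 FPKM in H2O2 and 19.02, 17.6 and 21.4 FPKM in control libraries. The kappa B site, searched as GGGA, any 2 bases and TTCC on either strand, lay in 1.64% of all promoters and in 4 of the 8 members with a window. NFKBIA is shown as the higher member that holds it, at chr14:35404720-35404999, minus strand (GRCh38.p14, motif in capitals, beginning 81 bases before the start).
NFKBIA: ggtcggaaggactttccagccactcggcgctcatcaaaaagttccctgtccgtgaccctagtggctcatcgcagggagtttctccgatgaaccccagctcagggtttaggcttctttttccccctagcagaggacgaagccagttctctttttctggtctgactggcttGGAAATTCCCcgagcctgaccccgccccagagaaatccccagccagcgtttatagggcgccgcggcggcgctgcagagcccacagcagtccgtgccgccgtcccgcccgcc
The immediate-early genes, by contrast, had 0 of 4 tested members without overlap, with KLF4 at 99.1, 92.3 and 90.4 FPKM in H2O2 and 103, 93.9 and 85.7 FPKM in control libraries.

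Genes of G2 and mitosis had the largest share of higher members among the 25 pathway lists. Of 19 tested, 9 were higher and 0 lower without overlap, and the median log2 difference was 0.47, with 0.47, 0.46 and 0.46 for replicates 1, 2 and 3 alone. With median-of-ratios scaling 8 were higher. Without H2O2 replicate 3 the counts were 9 higher and 1 lower, where the shares of all genes without that library were 13.4 and 10.7%. The summed value was 105, 103 and 112 FPKM in H2O2 libraries and 77.9, 73.8 and 71.8 FPKM in controls. PLK1, a kinase of mitotic entry, had 7.37, 5.64 and 6.30 FPKM in H2O2 libraries, against 3.10, 3.97 and 3.75 FPKM in controls (log2 difference 0.75, SE 0.16, limma adjusted p = 0.282). The spindle checkpoint kinase BUB1 had 26.4, 23.7 and 31.6 FPKM in H2O2 libraries and 17.6, 16.3 and 17.3 FPKM in controls. NUF2, which ties kinetochores to microtubules, had 5.32, 5.44 and 6.14 FPKM in H2O2 and 3.29, 3.30 and 2.93 FPKM in control libraries, while its complex partner NDC80 overlapped and leaned lower at 2.31, 1.25 and 2.67 FPKM in H2O2 and 4.05, 1.76 and 4.04 FPKM in control libraries. TOP2A, PRC1, BUB1B, CENPE, CCNB2 and AURKB were the other higher members, with log2 differences of 0.46 to 0.72. CDK1, the mitotic kinase itself, just overlapped at 9.72, 8.50 and 10.6 FPKM in H2O2 and 6.64, 8.60 and 5.69 FPKM in control libraries. For 8 of these 9 genes, CENPE apart, every listed value came from retained-intron transcripts, whose total share was also higher in H2O2 replicates 1 and 3. In H2O2 replicate 2, where that share was 63.4%, as in control replicate 3 to 3 digits, the list median was 0.46, and the part of that share in the result was not tested.

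The cell cycle genes homology region, bound by complexes that hold mitotic genes off outside G2, was searched as TTTGAA on either strand. It lay in 15.4% of all promoters and in 11 of the 17 members with a window, 6 of them among the 9 higher genes. PLK1 is shown, at chr16:23678639-23678918, plus strand (GRCh38.p14), where the match in capitals begins 29 bases before the start.
PLK1: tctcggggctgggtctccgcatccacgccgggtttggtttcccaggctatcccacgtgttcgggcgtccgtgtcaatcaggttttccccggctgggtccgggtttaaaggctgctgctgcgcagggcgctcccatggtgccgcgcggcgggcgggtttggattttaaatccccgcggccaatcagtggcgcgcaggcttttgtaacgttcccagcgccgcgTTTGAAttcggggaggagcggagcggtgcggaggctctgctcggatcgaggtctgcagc
The motif has 6 letters, and a match does not place a factor there. Among the higher genes with the motif, the BUB1B transcripts in the table begin at 40183724, downstream of the BUB1B window at 40160819 to 40161098.

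S phase genes stood closer to the background, with 3 of 23 higher and 1 lower without overlap. PRIM1, the primase subunit that starts new strands, had 2.44, 2.24 and 2.57 FPKM in H2O2 libraries and 1.15, 0.843 and 1.69 FPKM in controls, MCM10 had 3.00, 2.84 and 1.96 FPKM in H2O2 and 1.56, 1.71 and 1.57 FPKM in control libraries, and POLE, the leading-strand polymerase, had 13.8, 14.9 and 16.5 FPKM in H2O2 and 11.9, 11.6 and 12.2 FPKM in control libraries. CDC45 was the lower member, at a log2 difference of -0.09.

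**Figure D4:**
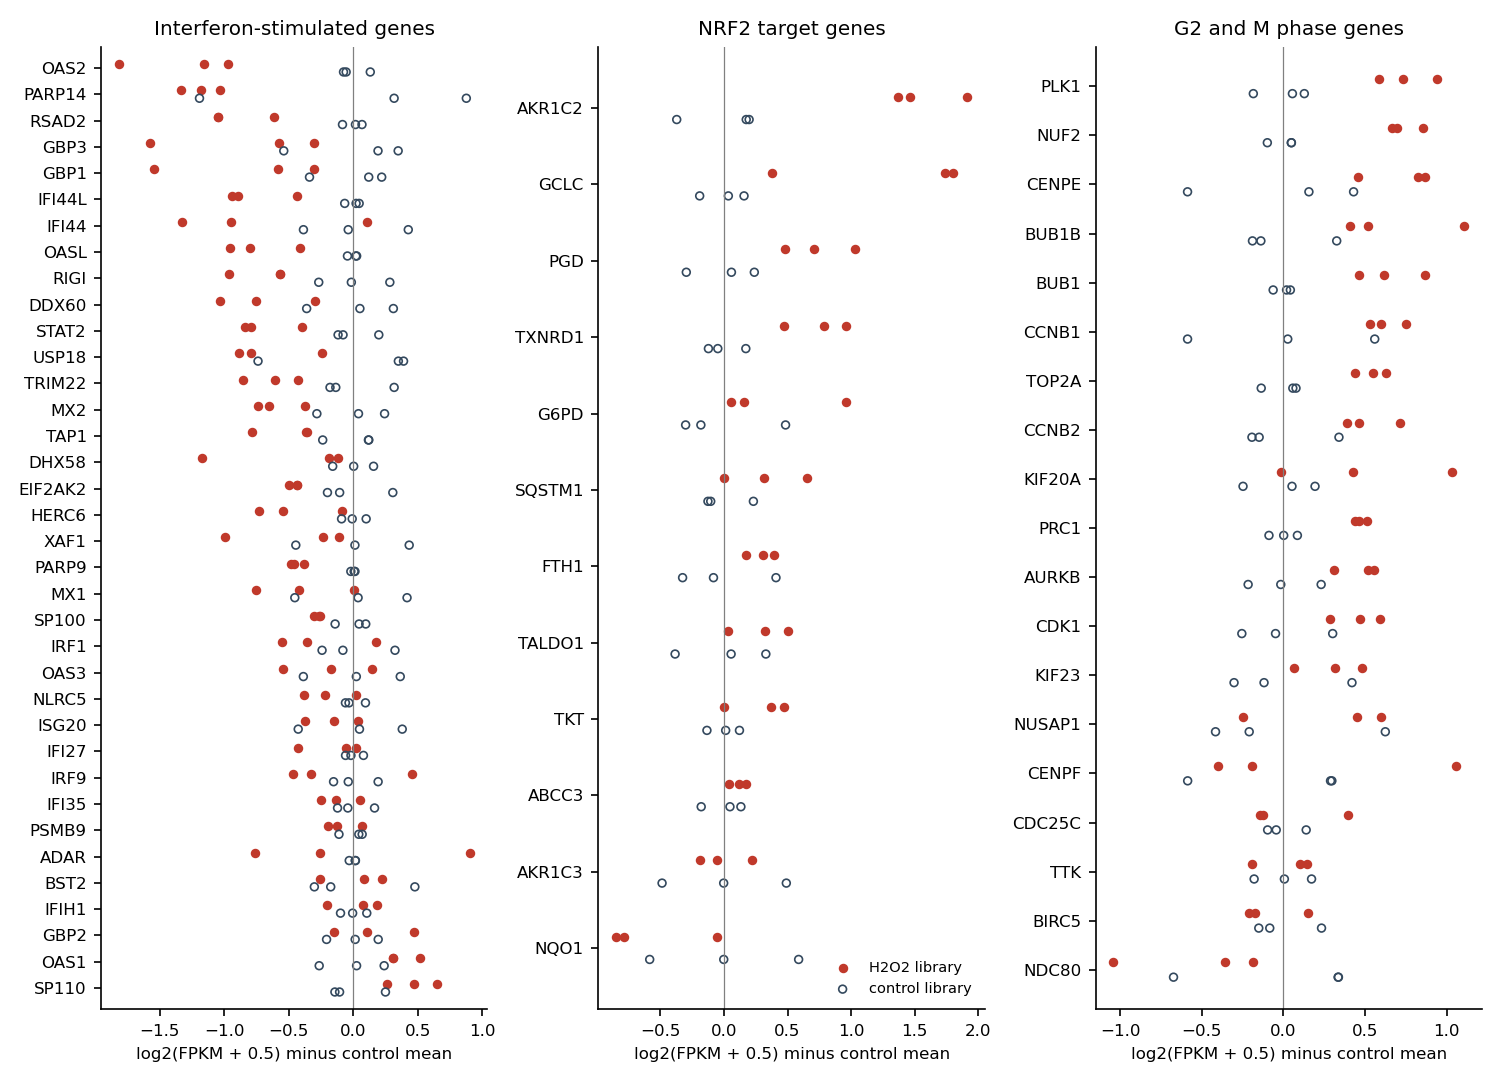
Each library's log2(FPKM + 0.5) minus the control mean (horizontal axis) for 36 of the 37 tested interferon-stimulated genes and all tested NRF2 target genes and G2 and M phase genes, filled points for H2O2 and open points for control libraries. Of the 36 interferon-stimulated genes shown, 12 have all H2O2 points left of all control points, and 4 of 12 NRF2 targets and 9 of 19 G2 and M phase genes have them to the right.

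Targets of p53 had 2 of 15 tested members higher and 0 lower without overlap, with a median of 0.18. Both are brakes on p53. MDM2, the ligase that degrades it, stood at 28.1, 30.5 and 28.9 FPKM in H2O2 libraries, against 18.5, 22.4 and 24.2 FPKM in controls, and PPM1D, the phosphatase WIP1, at 3.52, 3.88 and 4.53 FPKM in H2O2 and 2.07, 2.40 and 1.67 FPKM in control libraries. The ferredoxin reductase gene FDXR overlapped, at 2.93, 1.52 and 2.01 FPKM in H2O2 and 0.924, 0.830 and 1.88 FPKM in control libraries. Of 34 tested genes of DNA damage sensing and repair, 2 were higher, BARD1 and LIG3, and 1 was lower. LIG3, the ligase of base excision and single-strand break repair, had 3.46, 3.79 and 4.11 FPKM in H2O2 and 2.95, 3.26 and 2.63 FPKM in control libraries. These counts were near the background shares.

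Genes of cell death showed small differences. Of 13 tested genes that promote apoptosis, 2 were higher without overlap, CASP2 at 2.84, 2.71 and 3.80 FPKM in H2O2 and 2.24, 2.32 and 1.53 FPKM in control libraries, and CASP10 at 2.39, 2.61 and 2.24 FPKM in H2O2 and 2.02, 1.997 and 1.74 FPKM in control libraries, both caspases that start the cascade. The p53 targets BAX and BBC3 overlapped. Of 7 tested restraining genes 0 were separated. MCL1, a short-lived survival protein of the BCL2 family, had 89.3, 87.8 and 86.6 FPKM in H2O2 and 63.8, 93.0 and 87.3 FPKM in control libraries, with control replicate 1 alone below the rest.

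In metabolism, glycolysis and hypoxia genes had 4 of 21 tested members higher and 1 lower, and cholesterol genes 5 of 15 higher and 0 lower. ENO2, an enolase, had 16.3, 11.7 and 18.1 FPKM in H2O2 libraries, against 6.57, 8.66 and 6.51 FPKM in controls (log2 difference 1.02, SE 0.23, limma adjusted p = 0.298). EGLN3, a prolyl hydroxylase that HIF induces and that marks HIF for degradation, had 8.25, 5.58 and 12.4 FPKM in H2O2 libraries and 1.78, 4.46 and 4.14 FPKM in controls. PDK1, a kinase that restrains pyruvate dehydrogenase, had 3.25, 3.02 and 4.14 FPKM in H2O2 and 1.58, 2.81 and 1.70 FPKM in control libraries, the opposite of its relative PDK2, which had 2.77, 3.61 and 3.83 FPKM in H2O2 and 4.86, 5.91 and 6.82 FPKM in control libraries. Phosphofructokinase genes also parted, with PFKM at 11.6, 10.6 and 8.99 FPKM in H2O2 and 5.37, 6.60 and 7.62 FPKM in control libraries, and PFKL at 21.9, 16.1 and 14.2 FPKM in H2O2 and 23.9, 25.5 and 25.1 FPKM in control libraries. The abundant members GAPDH and VEGFA overlapped, VEGFA at 140, 157 and 131 FPKM in H2O2 and 153, 159 and 161 FPKM in control libraries. Of the cholesterol genes SREBF2, the factor that turns on the pathway, had 9.91, 9.45 and 14.3 FPKM in H2O2 and 7.29, 9.09 and 7.53 FPKM in control libraries, and LSS, DHCR7, STARD4 and HMGCS1 were higher with it, but with median-of-ratios scaling 2 genes of the list were higher. Respiratory chain genes had 1 of 24 higher and 0 lower, SDHA, at 40.7, 41.1 and 45.04 FPKM in H2O2 and 37.8, 36.5 and 35.8 FPKM in control libraries.

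The lncRNA genes that host small nucleolar RNAs had a median log2 difference of 0.13, with 6 of 26 tested members higher and 0 lower without overlap. Their introns carry the guides of ribosomal RNA modification, and several of the spliced hosts are known to be short-lived. Besides SNHG15, SNHG16 had 75.8, 82.5 and 78.3 FPKM in H2O2 libraries, against 39.6, 41.1 and 37.7 FPKM in controls (log2 difference 0.99, SE 0.24, limma adjusted p = 0.307). SNHG6 had 29.3, 30.1 and 29.4 FPKM in H2O2 libraries and 23.8, 18.1 and 18.8 FPKM in controls, and GAS5 had 144, 151 and 148 FPKM in H2O2 and 113, 119 and 127 FPKM in control libraries. ZFAS1 and SNHG22 completed the 6. The most abundant host, SNHG29, overlapped at 226, 267 and 237 FPKM in H2O2 and 245, 251 and 250 FPKM in control libraries. With scaling the counts were 6 higher and 1 lower.

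Other lncRNA genes with separated groups were named by rule. LINC01559 had 8.45, 8.35 and 9.50 FPKM in H2O2 libraries and 6.06, 5.43 and 5.44 FPKM in controls. RMDN2-AS1, whose listed span on chromosome 2 (37949911 to 38067041) ends shortly before that of CYP1B1-AS1, had 1.55, 1.16 and 1.74 FPKM in H2O2 libraries and 0.283, 0.713 and 0.497 FPKM in controls. Lower were TYMSOS, which lies opposite the thymidylate synthase gene, at 1.89, 1.92 and 1.06 FPKM in H2O2 and 3.14, 3.00 and 4.09 FPKM in control libraries, PCBP1-AS1 at 7.83, 6.89 and 9.38 FPKM in H2O2 and 12.4, 12.3 and 13.5 FPKM in control libraries, and the divergent transcripts EOGT-DT and ATP6AP1-DT, at log2 differences of -0.87 and -0.85. TYMS itself overlapped, at 3.30, 3.51 and 2.302 FPKM in H2O2 and 3.36, 3.87 and 2.92 FPKM in control libraries. Of 17 tested stress and nuclear lncRNAs 1 was separated, LINC00963, at a log2 difference of -0.38. MALAT1, the most abundant of them, had 397, 1285 and 798 FPKM in H2O2 libraries and 1223, 1135 and 1164 FPKM in controls, so that its value in H2O2 replicate 2 lay above every control and the other 2 below.

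Protein folding and amino acid stress genes went both ways. Of 18 endoplasmic reticulum genes 2 were higher, HYOU1 at 37.1, 37.1 and 33.8 FPKM in H2O2 and 29.6, 33.6 and 27.2 FPKM in control libraries and CALR at 17.5, 38.0 and 18.2 FPKM in H2O2 and 15.7, 15.2 and 12.5 FPKM in control libraries. The 2 lower members were the main chaperones HSP90B1, at 72.6, 74.4 and 86.0 FPKM in H2O2 and 99.0, 90.6 and 86.1 FPKM in control libraries, and HSPA5, at 73.5, 74.4 and 51.8 FPKM in H2O2 and 79.4, 77.0 and 77.8 FPKM in control libraries. With median-of-ratios scaling 1 member of this list was higher and 2 were lower. Among 12 genes of the ATF4 response EIF2S1, the subunit of the initiation factor that stress kinases phosphorylate, was higher at 5.49, 3.16 and 3.39 FPKM in H2O2 and 1.63, 1.96 and 2.18 FPKM in control libraries, and MTHFD2, a mitochondrial enzyme of folate metabolism, was lower at 35.2, 45.4 and 33.9 FPKM in H2O2 and 50.8, 52.3 and 52.7 FPKM in control libraries. Of 9 heat shock genes 0 were separated, with HSPD1 at 39.3, 45.9 and 43.2 FPKM in H2O2 and 40.9, 40.9 and 49.2 FPKM in control libraries. Splicing factor genes with SR domains had 3 of 24 higher and 0 lower, U2AF2, SRSF5 and SRRM1, with log2 differences of 0.61, 0.32 and 0.21. Of 5 tested genes of the xenobiotic receptor list 0 were separated, although all 5 had a log2 difference above 0, with a median of 0.34. Without H2O2 replicate 3, a choice made after the data were seen, 2 of the 5 were higher, where 13.4% of all genes were. ALDH3A1, an aldehyde dehydrogenase that dioxin induces, had 14.3, 33.2 and 24.5 FPKM in H2O2 and 10.99, 29.8 and 12.3 FPKM in control libraries, and CYP3A5 had 29.97, 28.3 and 32.3 FPKM in H2O2 and 31.9, 32.6 and 24.9 FPKM in control libraries.

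TNS4, the tensin and focal adhesion gene named in the study's title, did not separate the groups. Its listed retained-intron signal (chromosome 17, 40475828 to 40480875) was 3.15, 3.47 and 2.55 FPKM in H2O2 libraries, against 3.36, 2.66 and 6.85 FPKM in controls. The log2 difference was -0.34 (SE 0.30, limma adjusted p = 0.759), and it was 0.02 without control replicate 3, the library that held the high value. Of 21 tested genes of tensins, integrins and focal adhesions 3 were higher and 1 lower. The fibronectin receptor subunit ITGA5 had 8.10, 8.72 and 10.4 FPKM in H2O2 libraries and 6.20, 7.16 and 6.04 FPKM in controls, ITGB6 had 3.89, 3.19 and 5.27 FPKM in H2O2 and 3.13, 2.48 and 2.82 FPKM in control libraries, and VCL, vinculin, was also higher. TNS2, another tensin, was lower at 1.76, 0.968 and 1.06 FPKM in H2O2 and 1.84, 2.58 and 2.64 FPKM in control libraries. With median-of-ratios scaling 1 member was higher and 1 lower, and the list's median was 0.03 as deposited and -0.01 scaled. Among the epithelial markers KRT7 was higher, at 9.39, 7.52 and 12.1 FPKM in H2O2 and 5.07, 5.72 and 5.34 FPKM in control libraries, and KRT19 lower, at 18.6, 15.2 and 12.4 FPKM in H2O2 and 23.8, 22.6 and 18.7 FPKM in control libraries, although after scaling 0 of the markers were lower.

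**Figure D5:**
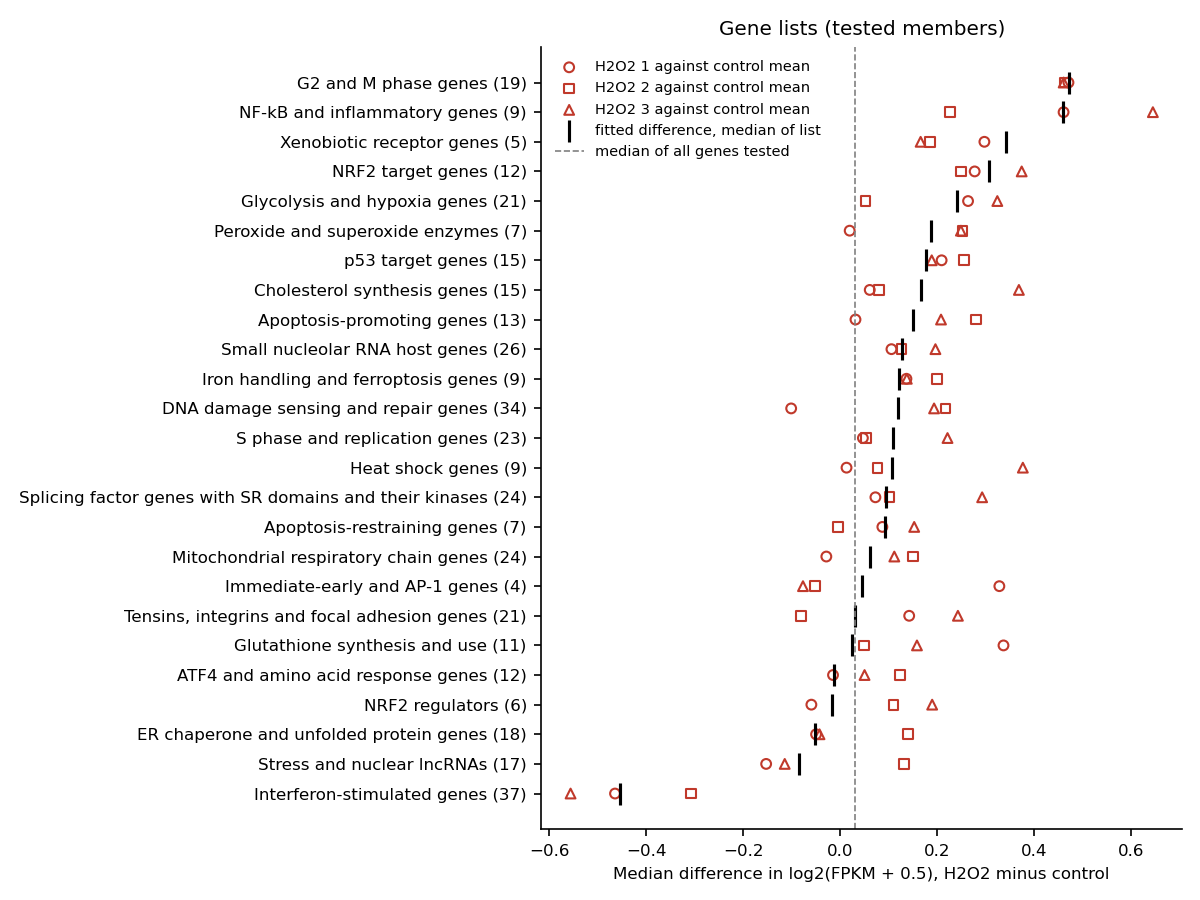
Median difference in log2(FPKM + 0.5) between H2O2 and control (horizontal axis) for the 25 pathway lists, with the number of tested members in brackets. Black bars are the median of the fitted differences, red symbols the same median for each H2O2 library against the control mean, and the dashed line the median of all genes at 0.03. Interferon-stimulated genes lie farthest to the left at -0.45, and G2 and M phase genes and NF-kB genes at the right at 0.47 and 0.46.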

How the data were processed

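RNA of 9 SNU16 libraries was extracted with Trizol and made into strand-specific libraries with the NEBNext Ultra Directional kit, per the labels' protocols. The authors deposited 1 table of FPKM values for 90652 transcripts, scaled by transcript length and library size. HISAT2 2.0.5, StringTie, edgeR 3.22.5 and GRCh38 are named in the submitters' processing notes without their roles. Read counts could not be recovered from the FPKM values, so the depth is unknown and no counting interval is given. Transcript classes came from GENCODE V29 and promoter windows from RefSeq GRCh38.p14.

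FPKM were summed per gene, and log2(FPKM + 0.5) was fitted with limma 3.58.1 (lmFit, eBayes with trend) in R 4.3.3, with all 9 libraries in 1 fit (6 residual degrees of freedom). P-values were adjusted by Benjamini-Hochberg over all 9410 genes or all 20135 transcripts, at a threshold of 0.05. An exact permutation test of 3 against 3 libraries cannot go below p = 0.1, so separation of the groups is given as a description. Tables were handled in Python 3.11.15 with pandas 2.3.3. The fit was tested on simulated data. The alternatives were other pseudocounts, filters, scaling, weights, a fit of the 6 libraries, a replicate block and leaving out each library.

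The genes, the 30 gene lists (25 pathway and 5 marker lists) and the tests were chosen with earlier results of these data known. Named were the 12 higher and 12 lower genes of smallest p without overlap whose higher group averaged 2 FPKM or more, 4 lncRNA genes each way at 1 FPKM, the called transcripts, the 6 leading transcripts each way, and up to 4 members without overlap per list, or else the 2 of highest mean. Only features with a symbol entered the rankings of leading genes and transcripts, and genes made mostly of transcripts assembled from the reads did not. Other members named, mostly partners of these genes whose groups overlapped, were chosen after their values were seen.

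Results on a few items, 1 called transcript among them, are not reported here.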

Additional observations from a re-analysis of the deposited data

How the results depend on the processing

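The count of called genes was 0 as reported and under every alternative that kept all libraries, and 0 to 3 when 1 library was left out. SFXN4 was called without H2O2 replicate 2, ATP11B, APEX1 and TXNDC5 without H2O2 replicate 3, and PSMD12 without control replicate 3. Against 5 called transcripts, a filter of 1 FPKM gave 2, a fit of the 6 libraries 9 and array weights 10, while leaving out 1 library gave 0 to 8. The counts were 0 without H2O2 replicate 1, 8 without H2O2 replicate 2, 0 without control replicate 1 and 1 without control replicate 3. Other pseudocounts gave 5, and no filter, scaling and no trend gave 7 each. The replicate block left 0 genes and 0 transcripts, with smallest limma adjusted p of 0.260 and 0.0578. Deviations of same-numbered libraries had correlations of 0.00848, 0.00362 and 1.18e-05, so no shared deviation was seen. Whether the samples were paired by number cannot be told from these values. OAS2-214 and CYP1B1-AS1-221 were called in every fit except the block and those without H2O2 replicate 1, control replicate 1 or control replicate 3.

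Counted over each named gene in each of the 15 alternatives, 19 log2 differences changed sign and 1416 did not. The changes fell in CYP3A5, HSPA8, HSPD1, KLF4, MCL1, NR4A1, PRDX2 and TNS4, whose groups overlapped. Scaling gave -0.012 for CYP3A5, and array weights gave 0.014 for KLF4, 0.019 for NR4A1 and -0.0094 for PRDX2. Leaving out 1 library gave -0.097 to 0.094 for CYP3A5, -0.52 to 0.47 for HSPA8, -0.078 to 0.061 for HSPD1, -0.069 to 0.065 for KLF4, -0.036 to 0.23 for MCL1, -0.25 to 0.20 for NR4A1, -0.27 to 0.61 for PRDX2 and -0.59 to 0.019 for TNS4. The cause was not tested. List medians ranged from -0.54 to -0.39 for interferon-stimulated genes, 0.42 to 0.58 for G2 and M phase genes, 0.34 to 0.57 for NF-kB genes and 0.26 to 0.44 for NRF2 targets. The median changed sign in 4 of 15 alternatives for NRF2 regulators and ATF4 genes each, in 2 for immediate-early, endoplasmic reticulum and tensin genes each, and in 1 for glutathione, apoptosis-restraining, heat shock and epithelial marker genes each. The neural marker list had no value under the filter of 1 FPKM. Counts without overlap after scaling, and without H2O2 replicate 3, were added after the data were seen. Depth could not be judged from FPKM, which limits statements on low values.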

Other observations

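Some genes differed more between replicates of 1 group than between the groups, and these were picked after their values were seen. APEX1, the main endonuclease of base excision repair, had 19.7, 15.8 and 3.39 FPKM in H2O2 libraries and 3.19, 2.22 and 3.64 FPKM in controls. TXNDC5, a protein disulfide isomerase of the endoplasmic reticulum, had 20.7, 19 and 4.46 FPKM in H2O2 libraries and 3.25, 4.03 and 2.96 FPKM in controls. In both, H2O2 replicates 1 and 2 were high and replicate 3 was near the controls. ATP11B, a lipid flippase, showed 1.44, 0.853 and 13.2 FPKM in H2O2 libraries and 14.6, 8.27 and 11.7 FPKM in controls. SFXN4, a mitochondrial protein, had 0.146, 6.37 and 0.1001 FPKM in H2O2 libraries and 6.10, 8.50 and 7.27 FPKM in controls, with only H2O2 replicate 2 near the controls. PSMD12, a proteasome subunit, had 3.15, 2.67 and 3.07 FPKM in H2O2 libraries and 11.4, 13.8 and 2.72 FPKM in controls, where control replicate 3 stood with the H2O2 libraries.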
